A study of Mus musculus with 5 samples.

Results

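The genes described here encode the proteins of the nuclear pore and the receptors that carry cargo through it. Members were chosen by gene symbol in the array's probe annotation: every symbol of the *Nup*, *Kpna*, *Kpnb*, *Ipo* and *Xpo* series, with *Tnpo1*, *Tnpo2*, *Tnpo3*, *Cse1l* and *Ran*. This gave 44 of the 19057 genes with a probe that names 1 gene, 20 of them nucleoporins and 24 transport receptors or *Ran*. The members have 81 of the 34885 such probes, and each gene was read by its brightest probe over the 5 arrays. The rule used symbols and brightness, not the difference between groups.

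RNA was profiled on Illumina MouseWG-6 v2.0 BeadChips from lenses of mice at postnatal day 0, with 3 mutant arrays (A, B and C) and 2 control arrays (A and B), each a separate biological replicate of 2 lenses. The mutants were *Celf1* cKO/lacZKI; Pax6GFPCre, in which Cre driven by a *Pax6* promoter removes the floxed exon of one *Celf1* allele in the lens lineage and the other allele carries a germline lacZ insertion present in every cell of the animal. The controls are labelled wild-type, and both groups were of mixed C57BL/6J and FVB background. The methods also name floxed mice without Cre and driver mice with intact *Celf1* as controls of the study. The sources used here do not settle which genotype is on the control arrays.

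A nuclear pore is a ring of nucleoporins. A scaffold of Y-shaped complexes and an inner ring holds a central channel lined with phenylalanine-glycine repeats, with filaments on the cytoplasmic side and a basket on the nuclear side. Importins bind cargo in the cytoplasm and release it in the nucleus when they meet Ran bound to GTP, whereas exportins need Ran-GTP to bind their cargo and drop it when GTP is hydrolysed in the cytoplasm. Lens fiber cells dismantle their nuclei as they mature, and the study asked how loss of Celf1, an RNA-binding protein, alters gene expression in the lens.

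*Celf1* itself read 167.4, 172.7 and 154.2 on the mutant arrays and 515.7 and 460.7 on the controls (log2 fold change -1.38, adjusted p = 7.88e-04). The fiber cell markers were bright, with summed intensities of 96579 to 111867 in the mutant and 120545 to 130166 in the control, although *Gja3* stayed between -8.7 and 8.7. Of 8 measured fiber markers 0 rose and 3 fell, and of 6 epithelial markers, summing to 1643 to 2503 against 2845 to 3114, 0 rose and 1 fell. By the same test (limma, adjusted p under 0.05) 2.68% of all genes fell. *Crybb2* and *Gja1* were also lower at an unadjusted p under 0.05, which 17.8% of all genes reached in either direction. *Gja1* and *Pdpn*, the brightest epithelial markers, overlapped between the groups. The part of these shifts in the results below was not tested, and in RNA of whole lenses fewer cells of a type and less RNA per cell cannot be told apart. Of the retina, pigment cell, vessel, red blood cell, leukocyte, skeletal muscle and corneal or mesenchymal markers, 0 passed the test (limma), and *Crx*, *Otx2* and *Slc4a1* were lower and *Kera* higher at an unadjusted p under 0.05. Their sums over the 5 arrays were 26.1 to 56.1 for retina (26.1 to 29.9 in the mutant), 34.5 to 111 for pigment cells, 807 to 1074 for vessels, 1277 to 4521 for red blood cells (highest on mutant array A), 34.4 to 48.4 for leukocytes, 16.7 to 29.7 for muscle and 6.9 to 24.4 for cornea and mesenchyme. *Xist* separated mutant arrays A and B (-0.3 and -0.9) from mutant array C (263.5) and the controls (432.4 and 440.6), and Y-linked *Eif2s3y* did so in reverse (206.9 and 177.3 against 4.4, 2.5 and 1.1). Sex as these genes read it therefore differs within the mutant group and not within the control group. Because mutant arrays A and B differ in it from both controls, sex and genotype are in part confounded in every comparison of the groups.

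Of the 44 members, 2 rose and 1 fell at an adjusted p under 0.05 (limma, Benjamini-Hochberg over all genes), which is 6.82% of the members beside 5.82% of all genes tested. Over all genes, 3.15% rose and 2.68% fell. Among genes whose brightest probe was at or above the median probe of the array, 8.11% of 37 members passed, beside 9.13% of 12150 genes. *Nup93*, of the inner ring of the pore, and *Xpot*, the exportin of transfer RNA, rose in *Celf1* cKO/lacZKI lenses, and *Ipo8*, an import receptor of the importin β family, fell. The members' median log2 fold change was 0.04, beside -0.00 over all genes, with 23 values above 0 and 21 below and a range of -0.97 to 0.64. Values thus lay on both sides of 0 in nearly equal number.

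At an unadjusted p under 0.05 there were 12 members, 5 higher and 7 lower, where 17.8% of all genes reached this level. All 12 were among the 37 members at or above the median probe, where 3252 of 12150 genes reached it. Every mutant array lay beyond both controls in 22 members, 11 in each direction, where 33.6% of all genes did so. Of the genes whose brightest probe was at or above the median probe, 4976 of 12150 had such a separation, as had 21 of the 37 members in that range. At an unadjusted p under 0.05 together with at least a 2-fold change there were 0 members, where 0.876% of all genes passed. With 3 arrays against 2 an exact permutation test of 1 gene cannot go below p = 0.1, so each gene rests on limma's shared estimate of the spread.

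**Figure D1:**
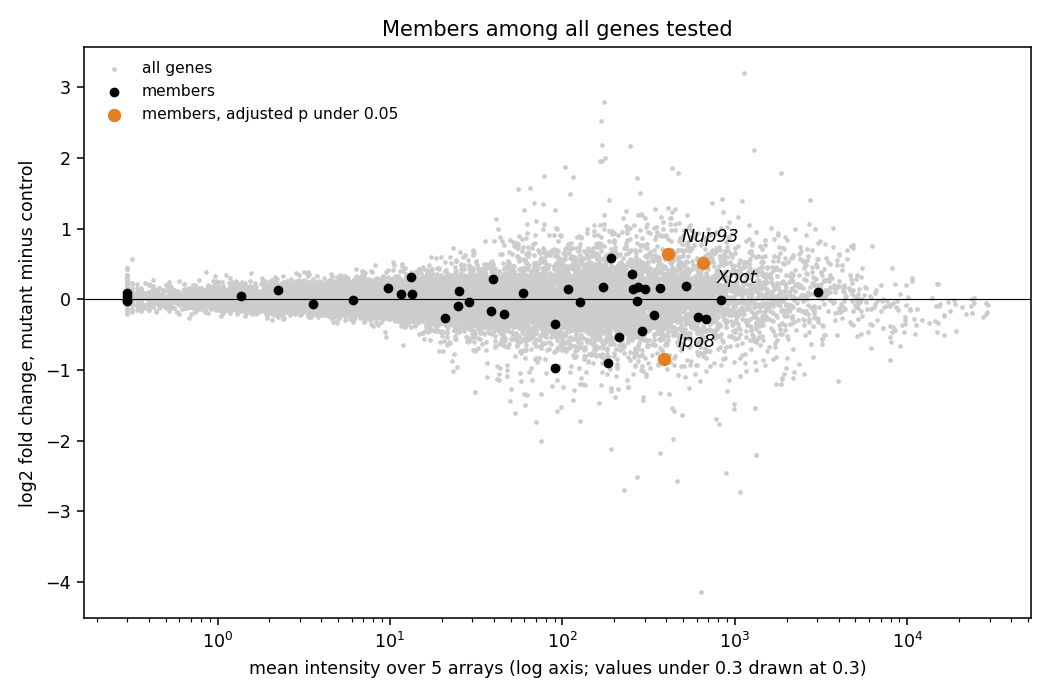
Log2 fold change (mutant minus control, vertical axis) against mean intensity over 5 arrays (log axis, values under 0.3 drawn at 0.3) for 19057 genes in grey and the 44 members in black. The 3 members past an adjusted p of 0.05 are in orange, at 0.64 (*Nup93*), 0.51 (*Xpot*) and -0.85 (*Ipo8*). Members lie on both sides of 0.

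*Nup93* rose, and its protein binds the other inner ring nucleoporins and anchors the channel to the scaffold. Intensities were 448.3 on mutant array A, 455.9 on B and 544.4 on C, against 303.8 and 286.4 in the controls. The groups did not overlap, with mutant array C the highest. The means were 483 ± 53.4 (SD, n = 3) and 295 ± 12.3 (SD, n = 2), a ratio of 1.64 (log2 fold change 0.64, standard error, SE, 0.10, adjusted p = 0.0134). The adjusted p was 0.0596 with control array A left out and 0.110 with control array B left out. A further probe of *Nup93*, which read between 11.1 and 15.2 on every array, had a log2 fold change of 0.02.

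*Xpot* encodes exportin-t, which carries mature transfer RNAs to the cytoplasm. It read 735.2, 753.5 and 747.3 in the mutant and 563.0 and 464.4 in the control. The mutant arrays lay close together, with an SD of 9.31 (n = 3), while the controls differed more from each other (SD 69.7, n = 2). The ratio of the means was 1.45 (log2 fold change 0.51, SE 0.10, adjusted p = 0.0254). It no longer passed when mutant array A (adjusted p = 0.0648), mutant array B (0.0918) or control array B (0.119) was left out, or with all probes averaged (0.141) or *Xist* state as a covariate (0.0640). A dimmer probe read 47.8, 44.1 and 71.8 against 47.2 and 57.2, a difference of 0.03 on the log2 scale with overlapping groups.

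*Ipo8*, importin 8, which carries Smad proteins and Argonaute complexes into the nucleus, was the member that fell. It read 317.8, 313.6 and 233.7 in the mutant and 520.3 and 566.5 in the control, again without overlap and with mutant array C farthest from the controls. The means were 288 ± 47.4 (SD, n = 3) and 543 ± 32.7 (SD, n = 2), a ratio of 0.53 (log2 fold change -0.85, SE 0.13, adjusted p = 0.0119). *Ipo8* has 1 probe. With control array A left out the adjusted p was 0.0601, and with control array B left out it was 0.114. With values raised to a floor of 16 in place of the added constant, none of the 3 calls held (adjusted p = 0.229 for *Nup93*, 0.264 for *Xpot* and 0.280 for *Ipo8*). A close relative, *Ipo7*, read between 9.7 and 14.5 on all arrays (log2 fold change 0.07, adjusted p = 0.723).

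**Figure D2:**
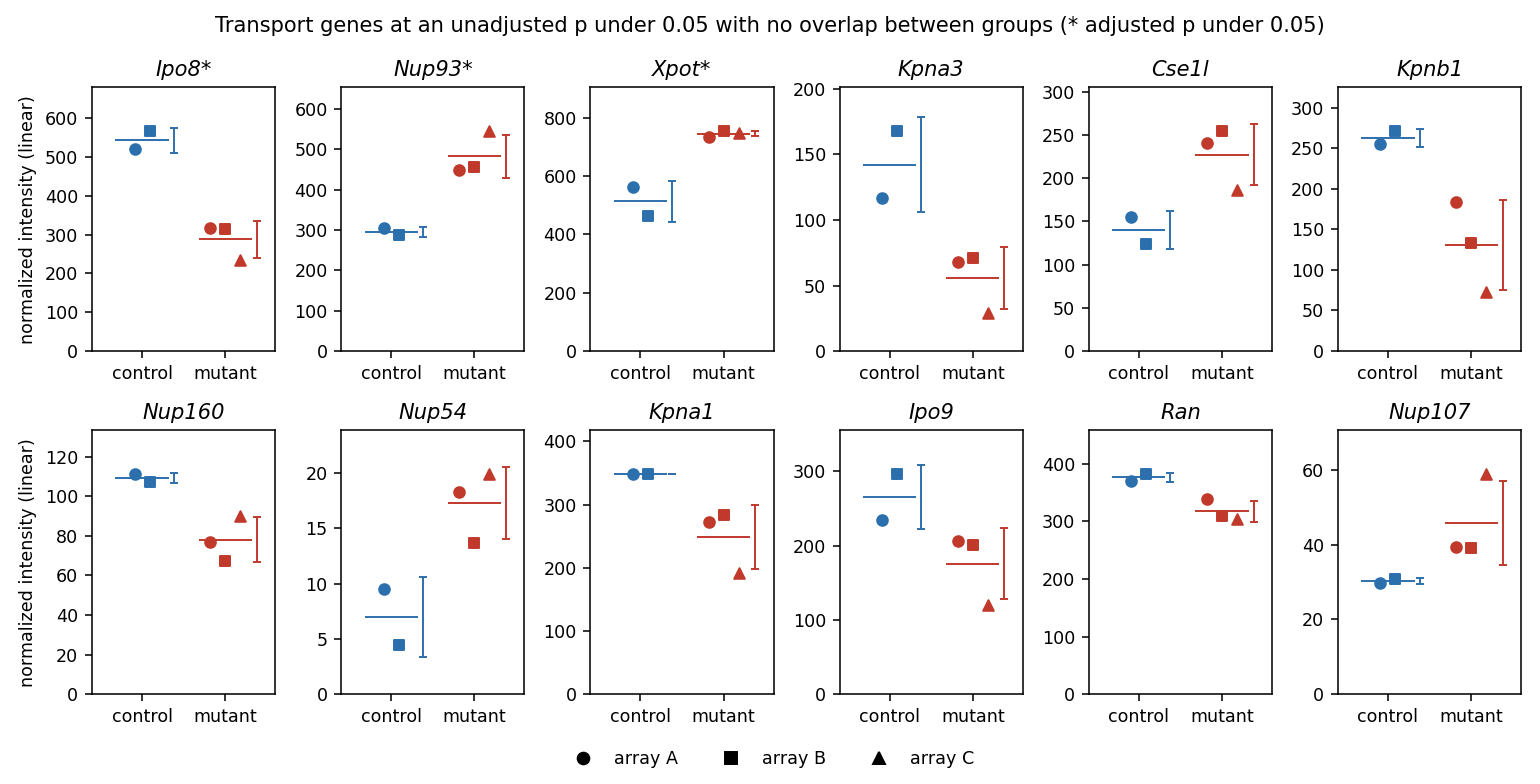
Normalized intensity (linear axis from 0, scaled per gene) on control arrays A and B (blue) and mutant arrays A, B and C (red) for the 12 members at an unadjusted p under 0.05 with no overlap between groups. Horizontal lines are group means, bars are 1 SD, and an asterisk marks an adjusted p under 0.05. Mutant array C (triangle) is the mutant array farthest from the controls in 9 of the 12.

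The sequence before the start of the 3 genes that passed is shown because *Nup93* and *Xpot* rose together and *Ipo8* moved the other way. The 250 bases before the annotated start are given 5′ to 3′ on the gene's strand, from RefSeq on GRCm38.p6. *Nup93* lies on the plus strand (chr8:94214314-94214563, the first of its annotated starts), and *Xpot* (chr10:121626333-121626582) and *Ipo8* (chr6:148831468-148831717) on the minus strand. Capitals mark the E-box, CACGTG, which reads the same on both strands and is a known binding sequence of basic helix-loop-helix factors such as Myc and Usf1.
Nup93: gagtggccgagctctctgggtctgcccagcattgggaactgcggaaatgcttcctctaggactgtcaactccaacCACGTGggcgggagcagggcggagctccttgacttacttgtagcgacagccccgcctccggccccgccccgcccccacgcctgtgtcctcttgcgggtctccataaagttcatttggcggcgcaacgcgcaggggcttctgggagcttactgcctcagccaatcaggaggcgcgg
Xpot: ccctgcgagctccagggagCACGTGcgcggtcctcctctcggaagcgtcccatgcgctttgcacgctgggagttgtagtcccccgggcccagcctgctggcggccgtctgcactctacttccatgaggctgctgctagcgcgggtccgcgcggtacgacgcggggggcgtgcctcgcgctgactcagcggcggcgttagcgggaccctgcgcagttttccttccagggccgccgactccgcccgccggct
Ipo8: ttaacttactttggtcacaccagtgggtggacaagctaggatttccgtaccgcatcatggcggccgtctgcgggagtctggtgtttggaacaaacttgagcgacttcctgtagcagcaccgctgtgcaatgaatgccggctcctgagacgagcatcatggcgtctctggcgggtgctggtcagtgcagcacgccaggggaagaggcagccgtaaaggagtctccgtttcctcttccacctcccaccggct
The E-box began 175 bases before the start in *Nup93* and 231 bases before it in *Xpot*, and these letters were not in the window of *Ipo8*, nor in that of the second annotated start of *Nup93*. Of the other motifs searched, the GC box divided the first windows the same way, with 4 in *Nup93*, 1 in *Xpot* and 0 in *Ipo8*. It too was missing from the second window of *Nup93*. Whether either motif bears on the direction of change was not tested. In *Nup93* the E-box shared 1 base with a GC box. A match describes the letters alone, and no match says only that they are not in this window.

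The same search was made in windows of 250 bases before to 50 after each annotated start, which were given for 35 of the 44 members (42 windows). The E-box was in 8 of these windows (19.0%), beside 7.15% of all 32851 windows of this length. The 8 members were *Nup93*, *Xpot*, *Nup54*, *Nup188*, *Ipo4*, *Ipo7*, *Tnpo2* and *Ran*, whose log2 fold changes ran from -0.28 to 0.64 and of which 2 passed the test. Both strands were also searched for CCAAT (52.4% of member windows, 37.4% of all), GGGCGG, the GC box (66.7% and 35.7%), TATAAA (9.52% and 13.6%), TGATGNAA, the C/EBP-ATF response element (0% and 3.97%), and GCGCATGC, the NRF1 core (11.9% and 2.71%). Member windows were richer in G and C, with a median of 65.0% beside 52.7% over all windows. The *Ipo8* window held none of the 6 motifs, and the first *Nup93* window held 2 CCAAT boxes.

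The inner ring partners of *Nup93* did not pass. *Nup205*, another member of the same subcomplex, read 268.5, 251.4 and 282.3 in the mutant and 261.6 and 285.2 in the control (log2 fold change -0.03, 95% interval -0.23 to 0.17). *Nup155*, which links the inner ring to the membrane, had -0.04 (-0.25 to 0.16), and the probe of *Nup188* was at background, from -0.2 to 0.6. Of the 4 inner ring genes 1 rose and 0 fell, where 5.82% of all genes passed. The difference between *Nup93* and these genes was not itself tested.

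The Y complex, the outer scaffold of the pore, had 6 measured genes, of which 0 passed (limma). At an unadjusted p under 0.05 there were 2, where 17.8% of all genes reached this level. These went opposite ways. *Nup107* read 39.4, 39.1 and 58.8 in the mutant and 29.8 and 30.9 in the control (log2 fold change 0.29, adjusted p = 0.250). *Nup160* read 77.0, 67.2 and 89.9 in the mutant and 111.2 and 107.5 in the control (log2 fold change -0.35, SE 0.10, adjusted p = 0.103). The groups did not overlap in either gene. The remaining Y complex genes, *Nup133*, *Nup85*, *Nup43* and *Nup37*, had log2 fold changes from -0.26 to 0.17.

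In the central channel, which forms the permeability barrier, 0 of 3 genes passed (limma). At an unadjusted p under 0.05 there was 1, where 17.8% of all genes reached this level. *Nup54* read 18.3, 13.7 and 19.9 in the mutant and 9.5 and 4.4 in the control (log2 fold change 0.31, adjusted p = 0.124), and the ratio of linear means was 2.49. Because a constant of 36.5 was added before log2, the change of so dim a gene is understated on the log2 scale, and a ratio of values this close to background is uncertain. *Nup62*, its channel partner, read 673.0, 591.3 and 405.9 in the mutant and 460.9 and 487.9 in the control, so that mutant array C lay below both controls and the others above. *Nup98*, which also lines the channel, was at -0.16 (adjusted p = 0.459).

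On the cytoplasmic face *Nup88* gave 832.8, 861.4 and 796.7 in the mutant and 866.6 and 800.3 in the control (log2 fold change -0.00, 95% interval -0.20 to 0.19), and its partner *Nup214* had 0.14 (-0.09 to 0.37). In the basket, *Nup50* had -0.21 (-0.48 to 0.06), and *Nup153* read from -4.1 to 0.0. *Nup210*, a membrane nucleoporin, read 245.3, 256.8 and 367.7 in the mutant and 246.5 and 251.9 in the control, so that only mutant array C stood away. Its paralog *Nup210l* and the *Nup62* paralog *Nup62cl* were at background.

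**Figure D3:**
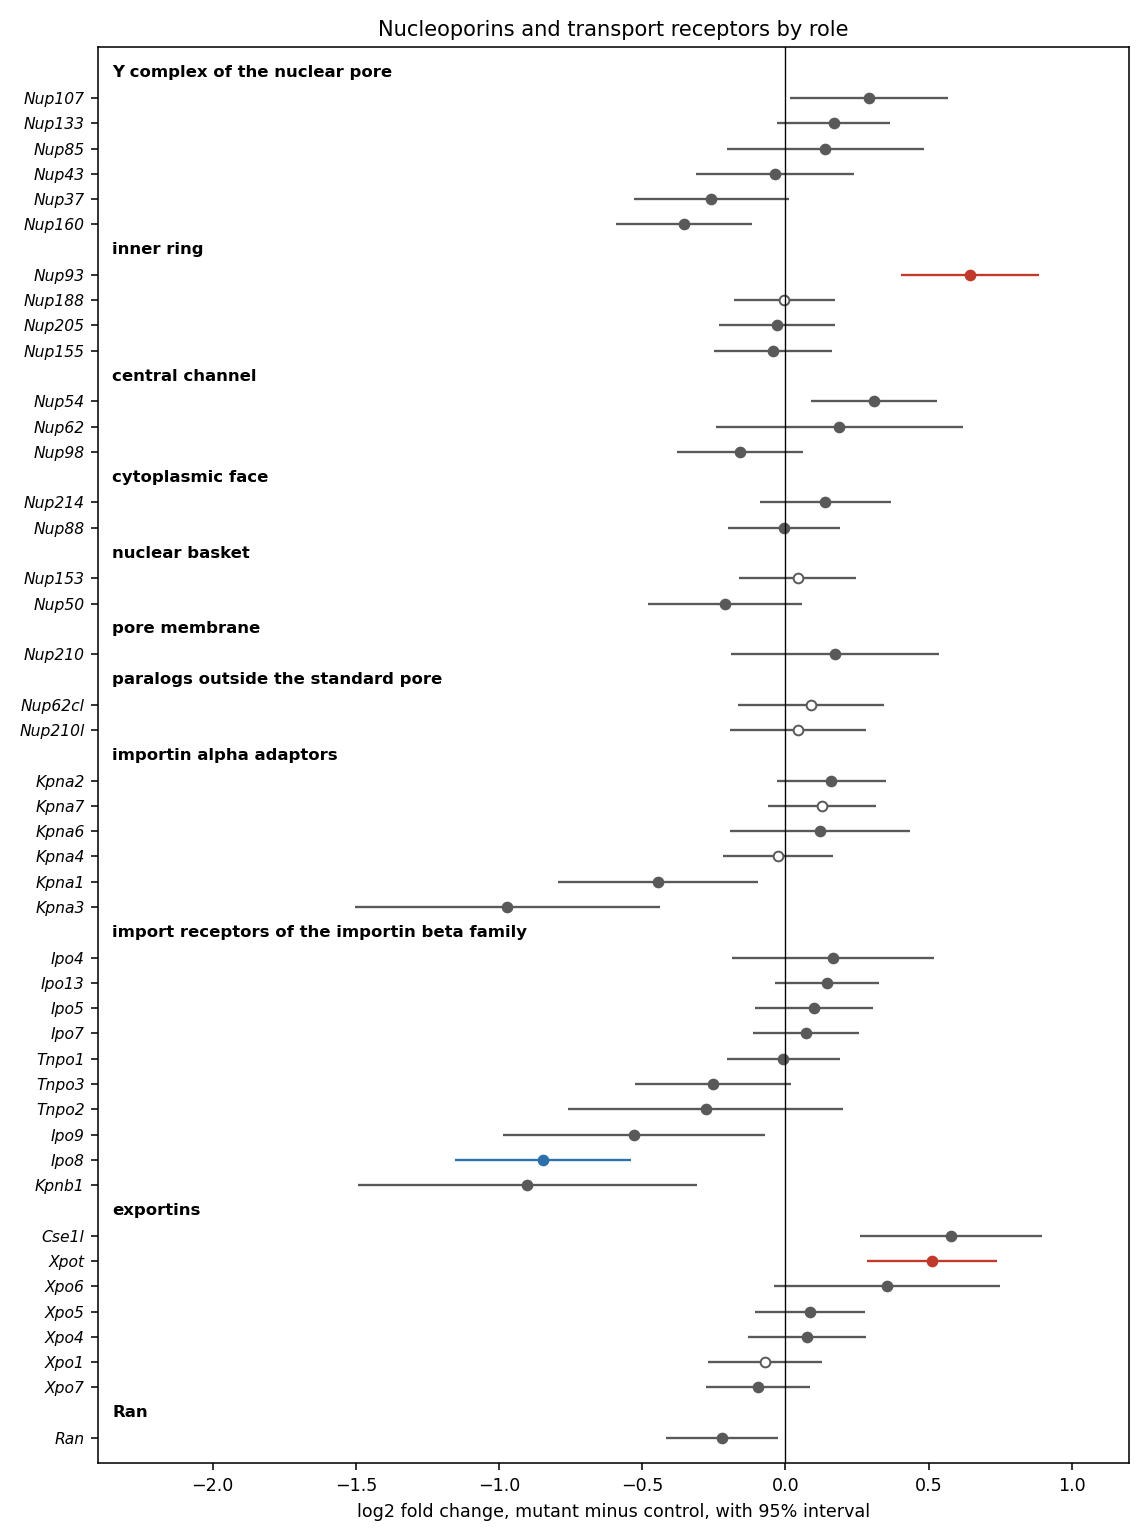
Log2 fold change (mutant minus control) with its 95% interval from limma for each of the 44 members, grouped by role. Red and blue mark the 2 members that rose and the 1 that fell at an adjusted p under 0.05, and open circles the 7 members whose brightest probe was below the median probe of the array.

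The importin α adaptors read the classical nuclear localization signal and dock to importin β1. Of 6 measured, 0 passed (limma), and 2 were lower at an unadjusted p under 0.05. In either direction, 17.8% of all genes reached this level. *Kpna3* read 67.8, 70.8 and 28.9 in the mutant and 116.4 and 167.6 in the control (ratio 0.39, log2 fold change -0.97, SE 0.23, adjusted p = 0.0529). *Kpna1* read 272.1, 283.8 and 191.0 against 347.9 and 347.6 (log2 fold change -0.45, adjusted p = 0.158). In both genes the groups did not overlap and mutant array C was the lowest of all. *Kpna6* and *Kpna2* had 0.12 and 0.16, with intervals that include 0, and *Kpna4* and *Kpna7* were below the median probe. *Kpna2* read 14.0, 9.9 and 11.3 in the mutant and 7.4 and 5.9 in the control (ratio of linear means 1.76). At such dim readings the added constant understates a change on the log2 scale, and the ratio is uncertain. Whether a probe also reads a close relative in this family was not tested.

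Among the 10 import receptors of the importin β family, 0 rose and 1, *Ipo8*, fell, with 2 more lower at an unadjusted p under 0.05. Over all genes 2.68% fell, and 17.8% were at an unadjusted p under 0.05 in either direction. *Kpnb1*, importin β1 itself, read 184.0, 133.5 and 73.3 in the mutant and 254.9 and 270.8 in the control. The mutant arrays were spread over more than a 2-fold range (SD 55.4, n = 3), and the log2 fold change of -0.90 (SE 0.25, 95% interval -1.49 to -0.31) did not pass (adjusted p = 0.0975). *Ipo9*, which carries histones and ribosomal proteins, read 205.7, 200.8 and 120.7 against 234.8 and 296.3 (log2 fold change -0.53, adjusted p = 0.207). The receptors *Ipo4*, *Ipo5*, *Ipo7* and *Ipo13* had log2 fold changes from 0.07 to 0.17. *Ipo5* read 2977.9, 3044.3 and 3378.4 in the mutant and 2884.3 and 2949.4 in the control (log2 fold change 0.10, 95% interval -0.11 to 0.31). The transportins, which carry RNA-binding proteins and, in the case of *Tnpo3*, serine-arginine splicing factors, had -0.01 (*Tnpo1*), -0.28 (*Tnpo2*) and -0.25 (*Tnpo3*). *Tnpo1* read only 4.4 to 8.8, where the added constant compresses the log2 scale, so its value says little about the transcript.

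Of 7 exportins 1, *Xpot*, rose and 0 fell, where 3.15% of all genes rose. *Cse1l* returns importin α to the cytoplasm after import, and read 240.6, 254.2 and 186.8 in the mutant and 155.1 and 124.1 in the control. The groups did not overlap, and here mutant array C was the mutant array nearest to the controls. The log2 fold change was 0.58 with an SE of 0.14 and an adjusted p of 0.0537. *Xpo6*, the exportin of actin and profilin, had 0.36 (adjusted p = 0.340) with mutant array A, at 213.7, inside the control range of 191.8 to 229.8. *Xpo5*, which exports precursors of microRNAs, had 0.09, and *Xpo4* and *Xpo7* had 0.08 and -0.10. *Xpo4* read 8.7 to 15.3 and *Xpo7* 22.2 to 29.0, where the added constant understates a change. The probes of *Xpo1*, the general exportin, read at most 5.4, and so dim a probe does not measure how abundant the transcript is.

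*Ran*, the GTPase that sets the direction of transport, read 339.0, 309.2 and 305.1 in the mutant and 370.8 and 382.1 in the control. The groups did not overlap, but the log2 fold change of -0.22 (SE 0.08, 95% interval -0.42 to -0.03) did not pass (adjusted p = 0.213).

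Probes for one gene did not always move together. Of the 44 members 22 had more than 1 probe, and over probes 3 of 81 passed, where 4.28% of all probes that name 1 gene did. These 3 were the brightest probes of the same 3 genes, and of the 37 other probes 0 passed (limma), 4 were at an unadjusted p under 0.05 and 16 were below the median probe. *Xpo7* had its lowest adjusted p at a dim probe that read 11.7, 11.1 and 11.7 in the mutant and 20.8 and 23.5 in the control (log2 fold change -0.29, adjusted p over probes = 0.0853), while its brightest probe had -0.10. *Nup88* had a pair of dim probes at -0.34 and -0.27 beside -0.00 at the brightest. The 4 probes of *Nup133* had 0.17, -0.00, -0.21 and 0.07, none of them at an unadjusted p under 0.05. Those at -0.21 and 0.07 were dim, reading at most 25.1 and 2.9. Whether such probes read other splice forms was not tested.

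**Figure D4:**
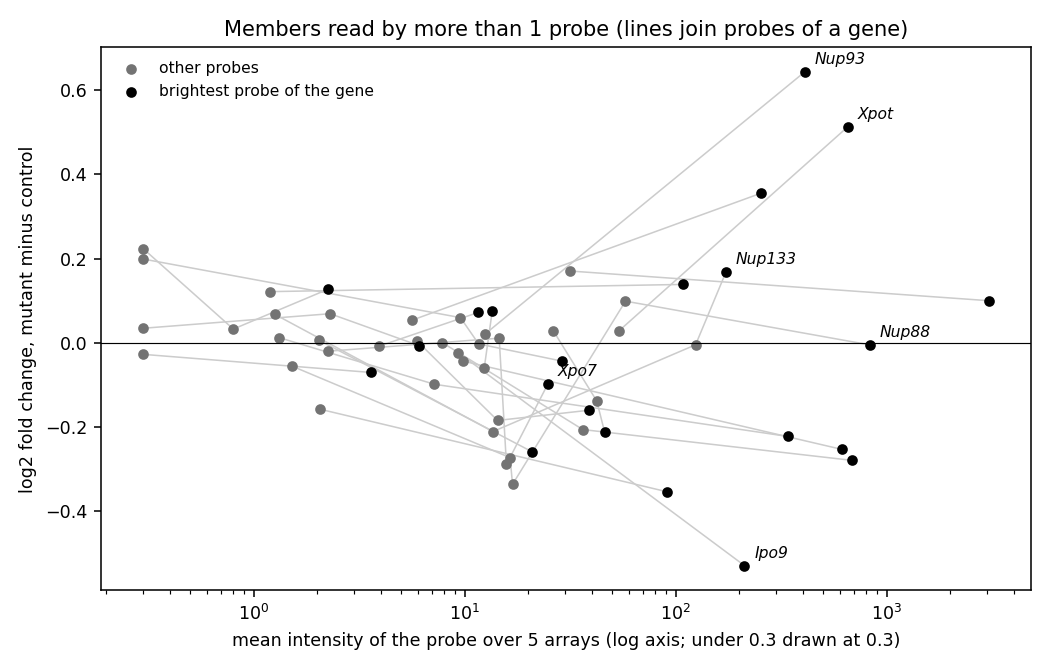
Log2 fold change (mutant minus control) against the mean intensity of the probe over 5 arrays (log axis, values under 0.3 drawn at 0.3) for the 22 members with more than 1 probe, with lines joining probes of a gene. The brightest probes (black) include *Nup93* at 0.64 and *Xpot* at 0.51, whose other probes (grey) lie at 0.02 and 0.03.

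Mutant array C was farthest from the controls in 25 of the 44 members, mutant array B in 12 and mutant array A in 7. Mutant arrays A and B were also the most alike pair over the probes of the array, with an SD of the log2 difference of 0.133 beside 0.195 to 0.317 for the other pairs. Array C differs from them in *Xist*, so sex and other differences of that array cannot be told apart. Without mutant array C, 7 members passed beside 6.19% of all genes (1179), *Kpna3* (-0.74, adjusted p = 0.0238), *Cse1l* (0.69, 0.0130), *Kpnb1* (-0.63, 0.0359) and *Nup160* joining the 3. With the state of *Xist* as a covariate, calls rose over the whole array, to 8.04% of all genes (1532), and 8 members passed. The mutant arm is then array C alone, and its spread is taken from that between the other arrays of like *Xist* state, so these values have no replicate of their own. They include *Kpnb1* (-1.45, adjusted p = 0.00360), *Kpna3* (-1.43, 0.00452) and *Kpna1* (-0.76, 0.00754), while *Cse1l* was at 0.35 (0.200).

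The 41 members that did not pass had 95% intervals of the log2 fold change with half-widths of 0.18 to 0.59 (median 0.23, widest in *Kpnb1*). These intervals are not adjusted for the number of genes, so a change beyond its half-width could still fail the adjusted threshold. *Cse1l*, at 0.58 with a half-width of 0.32, and *Kpna3*, at -0.97 with 0.53, did not pass. The narrowest interval was that of *Nup188*, read from -0.2 to 0.6, where the added constant compresses the log2 scale. In 7 members the brightest probe was below the median probe, with readings from -5.4 to 5.5, and in these a missing difference says little about the transcript.

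Genes that the symbols do not catch were taken from 5 lists, the last of proliferation genes and not of the pore. The lists were chosen with earlier results of these data known. Over all genes 5.82% passed, and 9.13% of those at or above the median probe. The shares that passed were 18.2% of the other nucleoporins, 11.1% of the Ran cycle list and 18.2% of the mRNA export factors. They were 18.2% of the lamina list and 5.26% of the proliferation genes. Of 11 measured among 12 other nucleoporins, 1 rose and 1 fell. *Aaas*, which encodes the WD-repeat nucleoporin aladin, read 160.9, 174.1 and 204.3 in the mutant and 98.3 and 96.3 in the control (log2 fold change 0.69, SE 0.10, adjusted p = 0.0101). *Nupl1*, the former symbol of the channel nucleoporin p58 that binds Nup62 and Nup54, read 113.6, 124.5 and 126.7 in the mutant and 233.2 and 251.5 in the control (-0.82, SE 0.08, adjusted p = 0.00326). The change of *Nupl1* passed in each alternative but the floor (adjusted p = 0.110), whereas *Aaas* did not pass with control array A (0.0567) or B (0.0890) left out, with the floor (0.200), or with all its probes averaged (log2 fold change 0.35, adjusted p = 0.0765). Both had groups that did not overlap, and *Nupl1* went down while its channel partners *Nup54* and *Nup62* had positive log2 fold changes that did not pass.

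Of 9 measured among 12 genes of the Ran cycle and accessory transport factors, 1 rose and 0 fell. *Rangap1*, which makes Ran hydrolyse GTP at the cytoplasmic face of the pore, read 2066.6, 2131.8 and 2213.3 in the mutant and 1415.3 and 1284.3 in the control (log2 fold change 0.65, SE 0.08, adjusted p = 0.00688, or 0.0571 with control array B left out). Its Ran-binding partner *Ranbp1* had 0.01 (adjusted p = 0.969), and *Rcc1*, the exchange factor that loads Ran with GTP in the nucleus, had 0.14 at readings of 0.3 to 6.4.

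Of 22 measured among 23 mRNA export factors, 3 rose and 1 fell, with a median log2 fold change of 0.08. The 3 were *Chtop* (0.42, adjusted p = 0.0323) and *Ncbp1* (0.49, 0.0463), which act on the transcript in the nucleus, and *Ddx19b* (0.55, 0.0427), the helicase at the cytoplasmic face. *Thoc2*, of the THO complex and on the X chromosome, fell (-0.38, 0.0366). Of 14 alternatives, *Chtop* passed in 3, *Thoc2* in 4, *Ncbp1* in 5 and *Ddx19b* in 6. With any 1 of the 5 arrays left out *Chtop* and *Thoc2* did not pass, and *Ncbp1* and *Ddx19b* passed only with mutant array C left out (adjusted p from 0.0519 to 0.257 in the fits that did not pass). *Nxf1*, the main mRNA export receptor, had 0.11 (adjusted p = 0.575).

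Of 11 measured among 12 genes of the lamina and inner nuclear membrane, 2 rose and 0 fell. *Lmna*, which encodes lamins A and C, read 323.2, 308.7 and 371.5 in the mutant and 173.7 and 179.3 in the control (log2 fold change 0.80, adjusted p = 0.00537, or 0.0542 with control array B left out). *Emd*, for emerin and on the X chromosome, stood at 0.39 with an adjusted p of 0.0498 and passed in 0 of 14 alternatives. Of 19 measured among 21 proliferation genes, 0 rose (limma, 1 higher at an unadjusted p under 0.05) and 1, the mitotic kinase gene *Plk1*, fell (-0.60, adjusted p = 0.0247). *Plk1* did not pass when mutant array A (0.0556) or B (0.0646) or control array A (0.113) or B (0.104) was left out, nor with *Xist* state as a covariate (-0.46, 0.0907). With the floor of 16, none of the 10 listed genes that passed kept its call (adjusted p from 0.110 for *Nupl1* to 0.385 for *Ddx19b*). The medians of the 5 lists ran from 0.06 to 0.14, beside 0.04 for the members and -0.00 over all genes.

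**Figure D5:**
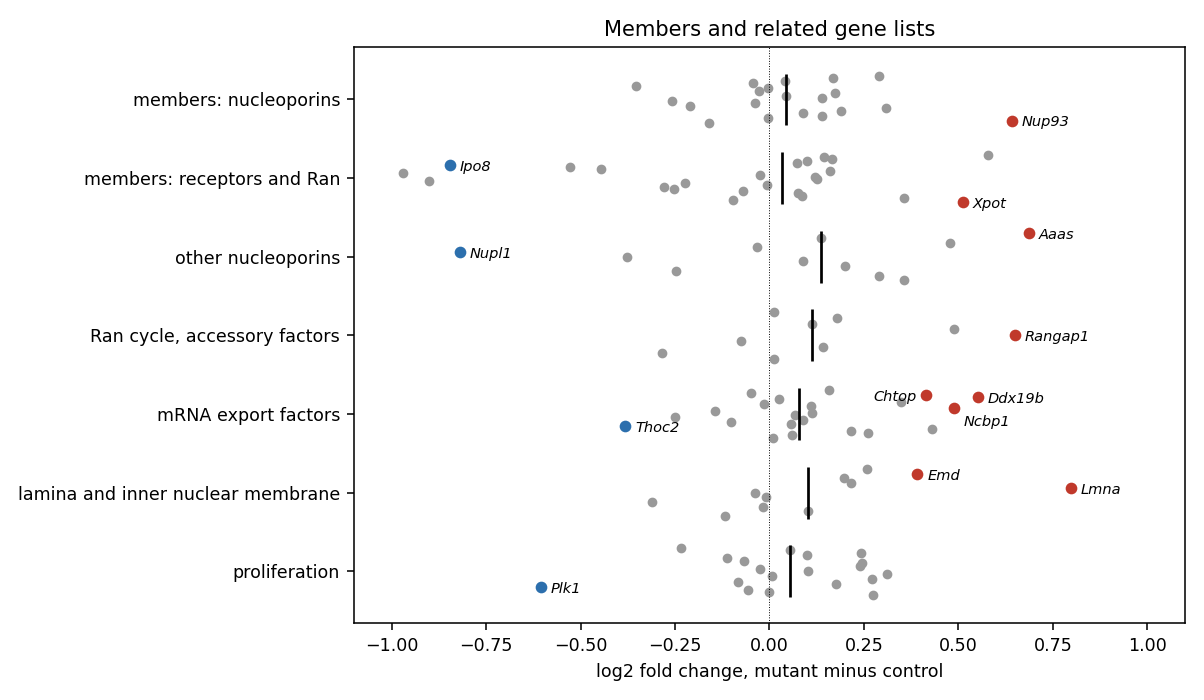
Log2 fold change (mutant minus control) of each measured gene in the members (20 nucleoporins, 24 receptors and *Ran*) and in 5 related lists, with the median of each as a vertical bar. Named points in red (higher) or blue (lower) passed an adjusted p of 0.05, among them *Ipo8* at -0.85, *Nupl1* at -0.82 and *Lmna* at 0.80.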

How the data were processed

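Gene expression was measured on 5 arrays, 3 mutant and 2 control. The deposited values are linear intensities, 1 for each probe on each array, which the authors made by background correction in lumi and Rank Invariant normalization (tool versions not given in the sources used here). All columns of the table were used (0 left out). Medians of the arrays were 5.6 to 7.2, and values reached down to -20.5, so 36.5 was added before log2, which puts the lowest at 16 and understates the change of dim genes. The table has no detection p. Of 45281 probes, 34885 carry 1 gene name in the platform annotation, 18 carry several and 10378 carry none. Each of 19057 genes was read by the probe with the highest mean log2 value.

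The groups were compared in R 4.3.3 by limma 3.58.1, with a two-sided moderated test, no block, Benjamini-Hochberg adjustment over all genes and a threshold of 0.05. These p-values weigh the group difference against the spread between biological replicates, which limma shares in part over genes. In the mutant group that spread includes the difference in *Xist* state. The number of arrays limits the precision. Genes given in full are members past the threshold, members at an unadjusted p under 0.05 with every mutant array beyond both controls, and listed genes past the threshold. Others are named as examples. Members and lists were chosen with earlier results of these data known. The other lists were nucleoporins with other symbols, the Ran cycle, mRNA export, the lamina and inner nuclear membrane, proliferation, and cell type markers.

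The alternatives tried were array weights, quantile normalization, a floor of 16 in place of the constant, averaging of probes, centring on array medians, robust moderation with an intensity trend, omission of dim genes, the replicate letter as a block, *Xist* state as a covariate, and omission of each array. The code was tested on simulated data. Promoter windows came from RefSeq (GRCm38.p6) and motifs were searched on both strands. The array files name no genome build. Plots were made in Python 3.11.15 with matplotlib 3.10.9. Protein sequences were not analysed here.

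The correlation of deviations from the group means between arrays with the same letter was 0.00 for A and 0.02 for B, and the letters were not taken as pairs.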

Additional observations from a re-analysis of the deposited data

How the results depend on the processing

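No direction reversed in 168 values of the 12 members given in full (14 alternatives each), of which 137 kept their side of the threshold, 12 no longer passed and 19 newly passed. The 12 were chosen with every mutant array beyond both controls. Leaving out arrays, weighting them or changing the moderation therefore could not reverse a direction, and its absence there says nothing about robustness. Adjusted p ranged from 0.00656 to 0.229 for *Nup93*, 0.00260 to 0.280 for *Ipo8* and 0.0207 to 0.264 for *Xpot*. The 10 listed genes past the threshold gave 140 values, of which 67 no longer passed and 0 reversed. Their groups did not overlap either, so the same limit holds.

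Against 2 members higher and 1 lower, averaging all probes, so that each probe of a gene counts alike, left 1 higher. *Xpot* then no longer passed (limma, adjusted p = 0.141), and its other probe read 44.1 to 71.8. The cause was not tested. A floor of 16 with no constant left 0 higher, 0 lower and 28 genes in all, in place of 1110 (limma), and the cause was not tested. Leaving out dim genes kept 37 members and 12150 genes in the fit. It gave 3 higher and 2 lower members and 1115 genes in all, which is 9.18% of the genes kept. The intensity trend gave 2 and 2, with 4.91% of all genes called. *Xist* state as a covariate gave 3 higher and 5 lower, with 1532 genes in all (8.04%), and the cause was not tested. Leaving out each array in turn gave 0 to 3 higher, 0 to 4 lower and 223 to 1179 genes in all. Without control array B no member passed, and without control array A only *Xpot* did. The lone control is then assumed to vary like the mutant arrays. The replicate block, in which mutant array C has no partner, gave 3 higher and 4 lower members and 1275 genes in all, and the same-letter arrays share only a letter. The members' median log2 fold change stayed between 0.00 and 0.07 in all 14 alternatives.

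Controls number 2, sex as read from *Xist* differs among mutant arrays and in part between groups, and 7 members were read below the median probe. The 95% intervals of the members that did not pass had half-widths of 0.18 to 0.59 on the log2 scale, so changes smaller than these could be missed.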
